A study of Mus musculus with 10 samples.

Results

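Interferon regulatory factors (IRFs) are transcription factors that share a DNA-binding domain at their amino end and bind DNA with repeated GAAA letters. Described here are 8 genes whose symbol is Irf followed by a number, of 24538 genes in the count files. They were chosen by symbol among the genes that passed a filter on expression. The filter was a mean FPKM (fragments scaled by transcript length and library size) of at least 1 in either group. A gene also needed a count in some library, and 11571 genes met both conditions. The 8 genes were tested for a difference between macrophages from lung metastases and macrophages from normal lungs.

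The macrophages came from wild type C57BL6/J female mice aged 8 to 10 weeks. Metastasis-associated macrophages (MAMs) were sorted as CD11B+ CD11C- cells from lung metastases, seeded at 6 to 8 weeks of age through the tail vein with E0771-LG, a breast cancer line of the mouse that colonizes the lung, and metastases of 2 to 4 mice were pooled for a sample. Resident alveolar macrophages (RAMs) were sorted as CD11B- CD11C+ cells from normal lungs. Both sorts also required CD45, F4/80, MRC1, high forward scatter and no LY6C, and each group has 5 libraries. The groups differ in cell type, in the presence of a tumour and in the dissected tissue, and these cannot be told apart in the design. Fewer cells of a type and less RNA per cell cannot be told apart either. By the study's methods a sample is an individual mouse or a pool of metastases, so p-values measure the spread between mice for RAMs and between pools for MAMs.

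Interferons are secreted proteins that signal through cell surface receptors and the JAK kinases to STAT proteins. The type I interferon receptor activates STAT proteins, among them STAT2, which join IRF9 to form the complex ISGF3, and ISGF3 switches on interferon-induced genes at a DNA element called the ISRE. Sensors of nucleic acids work upstream of this, through adaptors and the kinases TBK1 and IKKε, and phosphorylate IRF3 and IRF7, which then drive the genes of interferons themselves. Other members serve the identity of blood cells: IRF8 is needed for monocytes and several dendritic cells, and IRF4 for B cells, plasma cells and alternatively activated macrophages.

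Counts on genes ran from 55391447 to 87523247 in MAM libraries and from 50746305 to 72150650 in RAM libraries. Levels are given as CPM, counts scaled to a common library total with TMM factors, and each is a comparison between libraries for the same gene. The summed level of 8 markers of monocyte-derived macrophages ran from 11795 to 13347 CPM in the MAM libraries and from 361.1 to 464.9 in the RAM libraries. That of 8 markers of alveolar macrophages ran from 261 to 556.6 CPM among MAMs and from 9483 to 12288 among RAMs. By mean FPKM the most abundant of the former was C1qb, a complement gene, and of the latter Chil3, a chitinase-like gene. The former include Itgam, the gene of CD11B, by which the cells were sorted. Itgam averaged 6270 CPM in MAMs and 64.3 in RAMs, so the sort itself set that part of the sum. Of the latter, Marco overlapped between the groups and did not pass the test (232.1 CPM in MAMs, 368.3 in RAMs, adjusted p = 0.076, edgeR). Among genes with at least 1000 CPM in MAMs, the lowest level in RAMs was 0.912% of that in MAMs.

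The DNA just before the start of the Irf genes with the largest differences is shown first, since IRF and STAT proteins act through short elements in such regions. The sequences are from the RefSeq promoter table for GRCm38.p6, which holds 11 windows for 8 of the Irf genes, each from 250 bases before a start to 50 after it. Printed here is the part of the window before the annotated gene, 5′ to 3′ on the strand of the gene. Capitals mark a GAS, the element of STAT dimers, searched as TTCNNNGAA.
Irf7, chr7:141266482-141266674, minus strand: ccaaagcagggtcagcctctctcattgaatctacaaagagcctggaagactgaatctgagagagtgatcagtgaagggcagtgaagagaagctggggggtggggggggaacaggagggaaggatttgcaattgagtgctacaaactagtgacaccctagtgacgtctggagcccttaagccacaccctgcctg
Irf5, chr6:29526375-29526624, plus strand: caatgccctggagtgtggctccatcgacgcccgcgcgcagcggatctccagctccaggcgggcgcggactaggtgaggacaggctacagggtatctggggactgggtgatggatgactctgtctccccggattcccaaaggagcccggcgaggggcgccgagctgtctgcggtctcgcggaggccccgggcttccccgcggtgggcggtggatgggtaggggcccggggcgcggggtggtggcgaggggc
Irf1, chr11:53769764-53770013, plus strand: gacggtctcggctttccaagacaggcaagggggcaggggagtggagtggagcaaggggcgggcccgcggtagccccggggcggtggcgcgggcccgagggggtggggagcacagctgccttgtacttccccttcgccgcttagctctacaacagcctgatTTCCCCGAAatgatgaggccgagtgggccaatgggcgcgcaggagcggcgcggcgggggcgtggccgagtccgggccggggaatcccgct

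Irf1 had 1 GAS, TTCCCCGAA, 90 bases before the first of its 2 starts, and no GAS was found in the windows of Irf7 and Irf5. A GAS was found in 3 of the 11 windows, those of Irf1, Irf2 and Irf8, against 8.3% of 32851 promoter windows of the same length. Irf8 had 2, TTCTCGGAA and TTCAGAGAA, at 171 and 153 bases before its start. The core of the ISRE, searched as GAAA, any 2 bases and GAAA on both strands, was found in 1 window, that of Irf2, as GAAAATGAAA at 241 bases before the start, against 3.44% of all windows. Irf2 also had a GAS, TTCCGAGAA, which did not overlap the ISRE core. A match is a description of letters and not of a site in use, and no match says only that these letters are not in this window.

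MAMs had higher RNA levels than RAMs for 7 of the 8 tested Irf genes and a lower level for none. Irf7 stood far apart from the rest at 56.1-fold, Irf5, Irf1 and Irf9 were higher by 5.52-fold, 5.12-fold and 4.27-fold, and Irf4, Irf8 and Irf2 were higher by 2.47-fold, 1.99-fold and 1.74-fold. Irf3 did not pass the test. Of all 11571 tested genes 28.9% were higher in MAMs and 27.3% were lower with an adjusted p below 0.05 (edgeR's quasi-likelihood fit, adjusted by Benjamini and Hochberg over all tested genes, used throughout). With a fold change over 2 as well, 5 of the 8 Irf genes were higher (Irf7, Irf5, Irf1, Irf9 and Irf4), beside 15.3% of all tested genes. Every MAM library lay above every RAM library for 6 of them (Irf1, Irf2, Irf5, Irf7, Irf8 and Irf9), beside 23.7% of all tested genes.

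**Figure D1:**
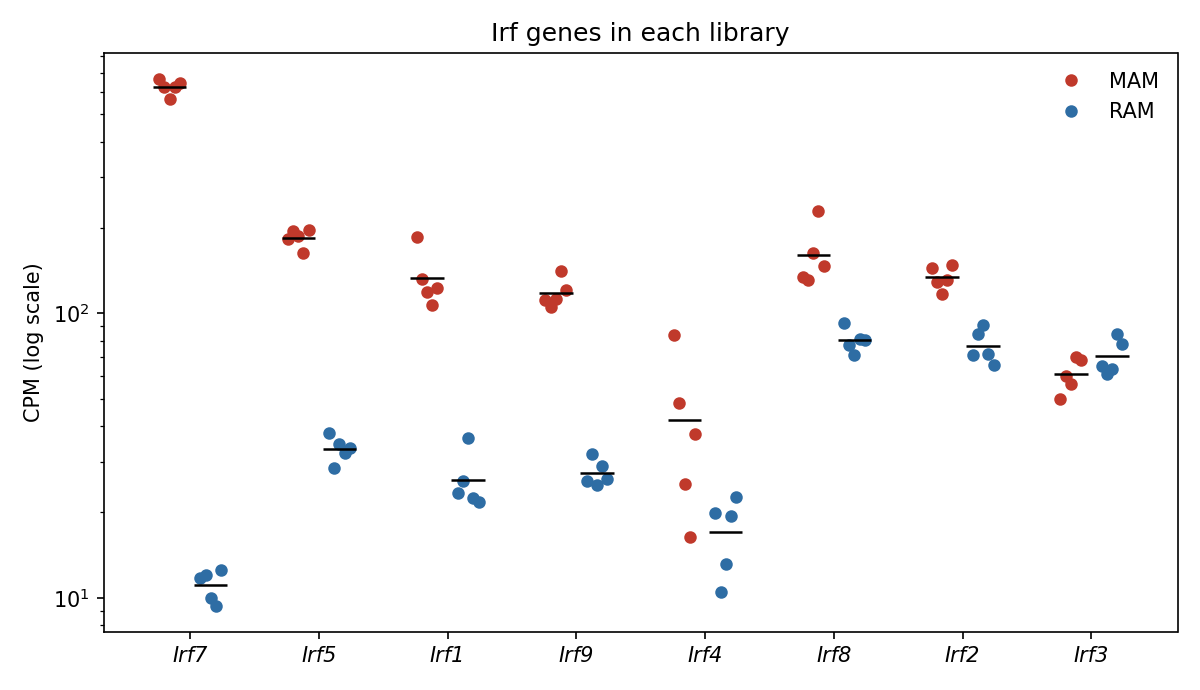
The level of each tested Irf gene in CPM on a log axis, with 1 point per library (red for the 5 MAMs, blue for the 5 RAMs) and a line at the group mean. Irf7 ran from 564.2 to 663.9 CPM in MAMs and from 9.39 to 12.5 in RAMs, whereas the groups of Irf3 and Irf4 overlapped.

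The first group comprises Irf7, Irf1 and Irf9, which interferon itself is known to induce, and the grouping does not exclude this for other members. Irf7 encodes the factor that amplifies type I interferon production and lies on chr7:141262706-141266481 on the minus strand of GRCm38. Its level in MAM replicates 1 to 5 was 663.9, 623.6, 564.2, 625.4 and 644.8 CPM. In RAM replicates 1 to 5 it was 11.7, 12.0, 10.0, 9.39 and 12.5 CPM. The groups were far apart, and within each the highest library was 1.18 times the lowest in MAMs and 1.33 times in RAMs. The difference for Irf7 was 5.81 on the log2 scale (standard error, SE, 0.106, adjusted p = 3.4e-15, edgeR), and 312 of the tested genes had a higher one. These levels rest on 25231 to 44891 counts per MAM library and 450 to 798 per RAM library. The mean level in RAMs was 1.78% of that in MAMs, not far above the 0.912% given above. Subtracting that share left 5.42 CPM in RAMs and a log2 ratio of 6.85, a setting chosen after seeing the data. The share rests on 1 gene and on the limit of 1000 CPM, and C1qa, at 812.5 CPM in MAMs, was at 0.892%. What the share stands for was not tested. Irf7 shares 45 bases with Phrf1 on the opposite strand, which was at 88.7 CPM in MAMs and 88.6 in RAMs.

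Irf1, on chr11:53770014-53778374 (plus strand), encodes an activator that interferon-gamma strongly induces. It was at 184.6, 131.7, 118.7, 106.5 and 122.2 CPM in MAM replicates 1 to 5, and at 23.3, 25.8, 36.3, 22.5 and 21.8 CPM in RAM replicates 1 to 5. MAM replicate 1 and RAM replicate 3 were the highest of their groups, and the groups did not overlap. In log2 units MAMs exceeded RAMs by 2.36 for Irf1 (SE 0.172, adjusted p = 1.5e-08, edgeR).

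Irf9, on chr14:55603571-55610030 (plus strand), encodes the DNA-binding subunit of ISGF3. Its levels were 110.9, 105.2, 112.3, 140.9 and 120.3 CPM in MAMs, highest in replicate 4. In RAMs they were 25.7, 32.0, 25.0, 29.0 and 26.1 CPM, and the groups did not overlap. The difference for Irf9 was 2.10 in log2 units (SE 0.111, adjusted p = 3.6e-10, edgeR). Irf9 shares 123 bases with Rnf31 on the same strand, which was at 66.2 CPM in MAMs and 32.9 in RAMs, so reads in that stretch are uncertain.

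The second group relays signals from sensors and is activated by phosphorylation rather than, in the main, by a change in transcript level. IRF7 of the first group is phosphorylated as well. Irf5, on chr6:29526625-29541871 (plus strand), encodes the factor that Toll-like receptors use for inflammatory cytokine genes in macrophages. It was at 181.7, 195.0, 186.6, 162.7 and 195.4 CPM in MAMs and at 37.8, 28.5, 34.7, 32.2 and 33.7 CPM in RAMs. The groups did not overlap, and the spread was narrow, with a coefficient of variation of 7.24% in MAMs and 10.2% in RAMs. MAMs exceeded RAMs by 2.46 in log2 units (SE 0.0958, adjusted p = 1.0e-11, edgeR). Irf5 shares 1045 bases with Tnpo3 on the opposite strand. Whether the counting used strand is not given in the sources used here, and Tnpo3 itself was at 82.1 CPM in MAMs and 82.5 in RAMs.

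Irf3, on chr7:44997648-45002848 (plus strand), encodes the factor that starts type I interferon production and is made constitutively in most cells. Its levels were 50.1, 60.1, 56.4, 70.2 and 68.7 CPM in MAMs and 65.3, 61.3, 63.5, 84.6 and 77.8 CPM in RAMs. The groups overlapped, and the difference did not pass the test (-0.21 in log2 units, SE 0.124, adjusted p = 0.17, edgeR). This outcome depended on the scaling between libraries, since with upper-quartile scaling the log2 fold change was -0.37 (adjusted p = 0.02, edgeR) and with library totals it was -0.43 (adjusted p = 0.0086, edgeR). The median log2 fold change of all tested genes was -0.02 with TMM scaling, -0.18 with upper-quartile scaling and -0.24 with library totals. Among all called genes 51.4% were higher in MAMs with TMM scaling, 40.3% with upper-quartile scaling and 36.4% with library totals. The 7 called Irf genes were higher in MAMs under each of these scalings. Irf3 shares 1065 bases with Bcl2l12 on the opposite strand, which was low at 2.42 and 3.87 CPM.

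The third group is Irf2, which encodes a factor that binds the same elements as IRF1 and mostly represses them. It lies on chr8:46739732-46847458 (plus strand). Its levels were 143.8, 129.3, 116.6, 131.4 and 148.0 CPM in MAMs and 71.2, 84.4, 91.1, 71.7 and 65.8 CPM in RAMs, without overlap. With a log2 fold change of 0.80 (SE 0.105, adjusted p = 1.0e-05, edgeR), Irf2 differed least among the called Irf genes. Irf1 and Irf2 also share bases with predicted genes on the opposite strand, 907 of them for Irf1 with Gm17334.

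The fourth group is the related pair Irf4 and Irf8, whose proteins bind DNA weakly alone and join partners such as PU.1. Irf8, on chr8:120736358-120756694 (plus strand), was at 133.6, 130.7, 163.1, 228.4 and 146.7 CPM in MAMs. In RAMs it was at 92.5, 77.5, 71.5, 81.4 and 80.8 CPM. Every MAM library lay above every RAM library, and MAM replicate 4 was the highest. Irf8 rose by 0.99 on the log2 scale (SE 0.139, adjusted p = 2.1e-05, edgeR), just under a fold change of 2, and it was between 0.83 and 1.06, on either side of that limit, when 1 library was left out. Gm20388 overlaps the whole of Irf8 on the same strand.

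Irf4, on chr13:30749226-30766976 (plus strand), was the most variable of the tested members. Its levels in MAM replicates 1 to 5 were 83.8, 48.5, 25.2, 16.3 and 37.7 CPM, a range of 5.13-fold. In RAM replicates 1 to 5 they were 19.9, 10.5, 13.1, 19.4 and 22.6 CPM, a range of 2.16-fold. The groups overlapped, with MAM replicate 4 below 3 of the RAM libraries. Irf4 was higher in MAMs by 1.31 in log2 units (SE 0.357, adjusted p = 0.0058, edgeR). Without MAM replicate 1 it was 0.90 (adjusted p = 0.018, edgeR), which is under a fold change of 2.

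Markers of other cell types, among them B cells and dendritic cells, which express Irf4 or Irf8, were compared with these levels. The summed level of 6 B cell markers was 4.96, 10.9, 12.7, 28.6 and 13.9 CPM in MAM replicates 1 to 5 and 3.69 to 19.4 CPM in RAMs. Cd79b, which encodes a part of the B cell receptor, was the most abundant of them by mean FPKM over all libraries, the measure used for each list here, and Pax5 was at 0 in 1 MAM library. The sum was highest in MAM replicate 4, where Irf8 was highest and Irf4 lowest. The 6 neutrophil markers, of which Csf3r, the receptor of G-CSF, had the highest FPKM, summed to 104.1, 130.3, 171.3, 246.9 and 155.8 CPM in MAMs, also highest in replicate 4, and to 92.8 to 119.3 CPM in RAMs. Csf3r made up most of the sum in MAMs, with 145.8 CPM on average against 68.4 in RAMs. S100a8 and S100a9 were also higher in MAMs, at 4.12 and 3.88 CPM. Cxcr2 was lower, at 7.41 CPM in MAMs and 31.2 in RAMs. The 7 markers of conventional dendritic cells summed to between 5.62 and 19.1 CPM in MAMs, against 17.4 to 27.0 for RAMs, and Clec9a, a receptor for dead cells, had the highest mean FPKM, with 12.9 to 24.1 CPM in RAMs and 0.335 to 1.71 in MAMs. Flt3, a defining marker, had at most 1 count in a MAM library and 6 in a RAM library. Zbtb46, Xcr1, Cd209a, Ccr7 and Dpp4 went the other way, with a higher mean in MAMs. Dpp4 averaged 4.51 CPM in MAMs and 0.569 in RAMs, without overlap. Ccr7 averaged 1.94 and 0.321 CPM, with overlap (adjusted p = 0.027, edgeR). The 6 markers of plasmacytoid dendritic cells summed to between 125.7 and 170.4 CPM in MAMs, against 36.4 to 49.0 for RAMs, of which Tcf4, a transcription factor gene, made up 146.9 CPM on average in MAMs and 31.7 in RAMs. Ccr9 was lower in MAMs, at 4.12 CPM against 9.96 in RAMs (log2 fold change -1.28, adjusted p = 0.012, edgeR). Siglech and Klk1 were at 0 in every MAM library and averaged 0.268 and 0.0459 CPM in RAMs. Ly6d and Cox6a2 had a higher mean in MAMs and did not pass the test. The part of these cells in the levels of Irf4 and Irf8 was not tested.

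Other marker lists also differed between the groups. The 7 T and NK cell markers summed to between 9.46 and 17.2 CPM in MAMs, against 1.31 to 6.27 for RAMs. Cd4, which encodes a T helper cell coreceptor, had the highest FPKM and made up most of this difference, with 10.1 CPM in MAMs and 0.619 in RAMs on average. Cd3e (1.58 against 1.22 CPM, adjusted p = 0.74, edgeR) and Cd3d had a slightly higher mean in MAMs. Cd3g, Cd8a, Ncr1 and Klrb1c had a higher mean in RAMs. The 5 stromal and endothelial markers summed to between 22.3 and 48.5 CPM in MAMs, against 1.7 to 10.1 for RAMs, and Pecam1, an endothelial adhesion molecule, had the highest FPKM. The 6 epithelial and tumour cell markers summed to between 9.73 and 16.7 CPM in MAMs, against 206.7 to 232.3 for RAMs. Epcam, an epithelial adhesion molecule, had the highest FPKM, with 76.8 CPM in RAMs and 0.652 in MAMs. Cdh1 averaged 130.8 CPM in RAMs and 5.16 in MAMs, and Sftpc 14.4 and 4.03. The keratin genes of the list went the other way at low levels. Krt8 averaged 1.48 CPM in MAMs and 0.0453 in RAMs, without overlap, and Krt18 1.81 and 0.119, with overlap. Krt14 averaged 0.107 CPM in MAMs and was at 0 in every RAM library. The part of these cells in the Irf levels was not tested.

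**Figure D2:**
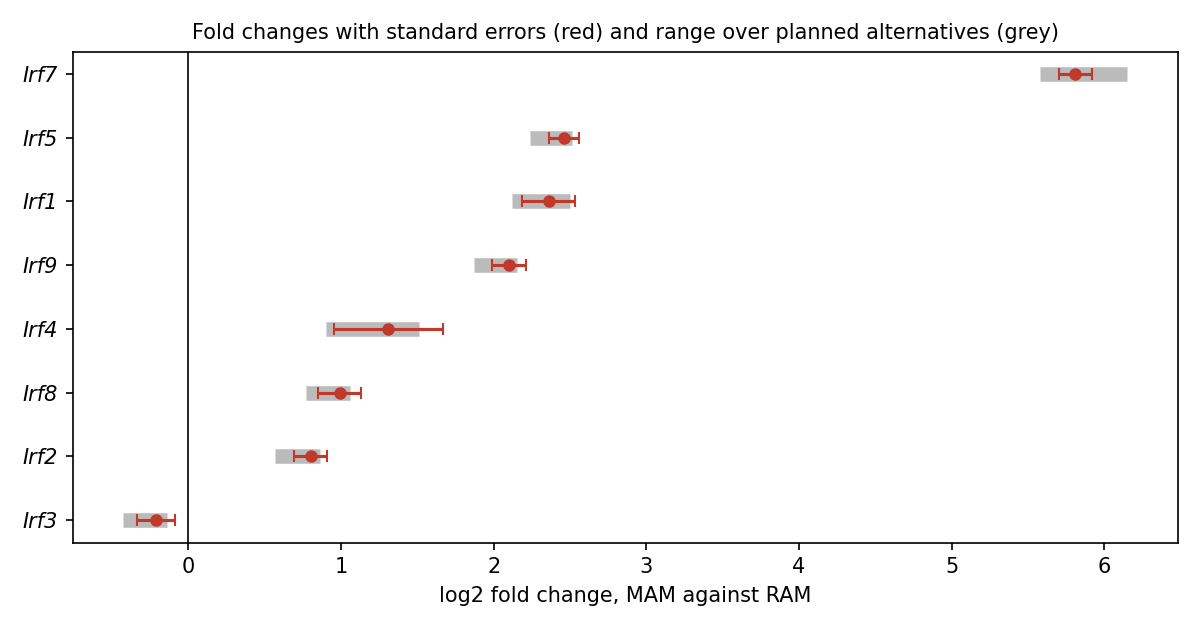
The log2 fold change of each tested Irf gene, MAMs against RAMs, with its standard error (red) and the range over the alternatives planned for this comparison (grey bar). Irf7 was at 5.81, and Irf3 was at -0.21 and below 0 in each alternative.

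Levels of different genes were compared as FPKM, which scale by transcript length. In MAMs Irf7 was the highest at 390.6 ± 21.5 FPKM (SD, n = 5), 4.18 times the next, Irf5, at 93.3 ± 5.97. Irf8 at 62.2 ± 15.3 FPKM, Irf1 at 61.9 ± 15.0 and Irf2 at 57.5 ± 5.45 followed, and these neighbours overlapped. The ranges of Irf5 and Irf8 overlapped as well, as did those of Irf2 and Irf9, although Irf2 was the higher in all 5 libraries. Irf9 had 44.3 ± 3.93 FPKM, Irf3 26.6 ± 4.31 and Irf4 8.11 ± 4.94, each without overlap with the next.

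In RAMs the order of FPKM was different. Irf2 at 34.0 ± 5.2 FPKM (SD, n = 5), Irf3 at 32.5 ± 5.12 and Irf8 at 31.8 ± 2.54 were the highest and overlapped. Irf5 had 16.7 ± 1.29 FPKM, Irf1 12.2 ± 2.64 and Irf9 10.3 ± 1.45, and each overlapped the next of these. Irf7 was at 5.41 ± 0.389 FPKM, below all of them in all 5 libraries, and Irf4 at 3.31 ± 0.957 was lower still. By mean FPKM Irf7 moved from the seventh place among the 8 in RAMs to the first in MAMs.

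The 8 Irf genes summed to 744.5 ± 32.1 FPKM in MAMs and 146.1 ± 4.83 in RAMs (SD, n = 5 each). Irf7 made up 52.4% ± 1.13 of that sum in MAMs and 3.71% ± 0.331 in RAMs. The shares of Irf2 (7.71% against 23.3%), Irf3 (3.59% against 22.2%) and Irf8 (8.39% against 21.8%) were lower in MAMs. Those of Irf5 (12.6% against 11.4%), Irf1 (8.29% against 8.32%), Irf9 (5.95% against 7.04%) and Irf4 (1.08% against 2.26%) lay closer together. Shares of a sum depend on each other, and they are given without a test.

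**Figure D3:**
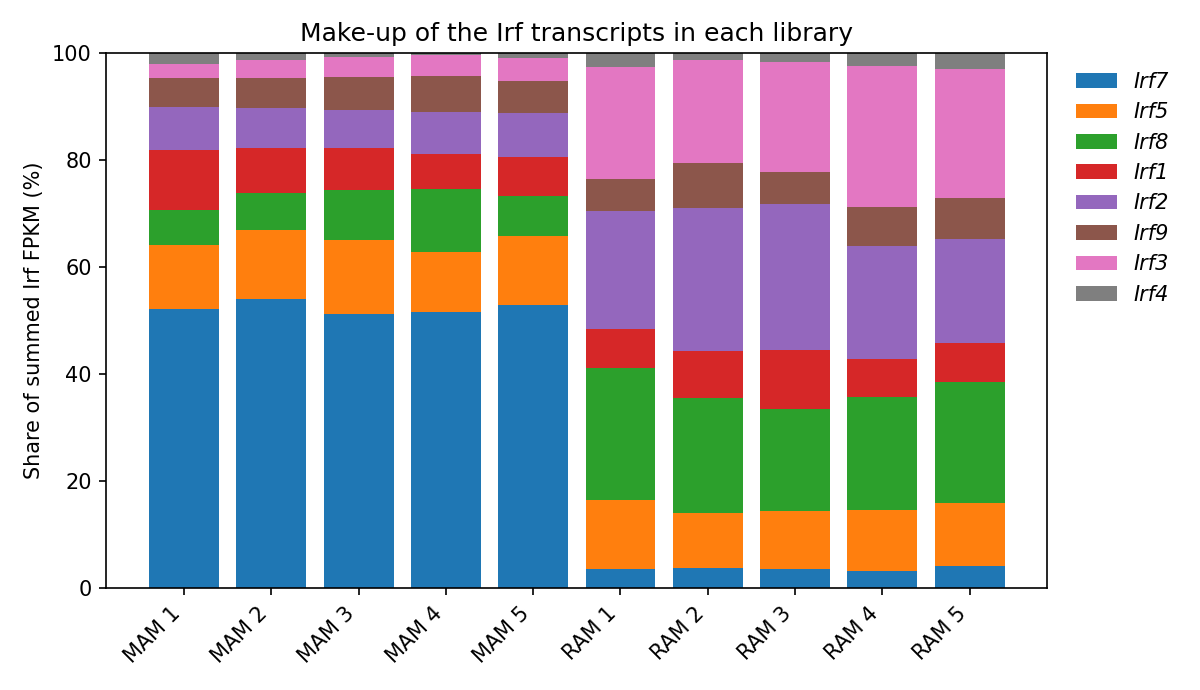
Share of each Irf gene in the summed FPKM of the 8 genes, in percent, with 1 bar per library. Irf7 fills 52.4% of the sum on average in the MAM libraries and 3.71% in the RAM libraries, where Irf2, Irf3 and Irf8 fill most of it.

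Ratios between functional pairs were formed within each library, so that they do not depend on the scaling between libraries. The log2 ratio of Irf1 counts to Irf2 counts, activator to repressor, was -0.03 ± 0.271 in MAMs and -1.58 ± 0.15 in RAMs (SD, n = 5 each), and the groups did not overlap. The difference was 1.55. A two-sided exact permutation test gave p = 0.00794, below which 5 against 5 libraries cannot go, and an adjusted p of 0.0119 over the 3 ratios. In FPKM, Irf1 was at 0.862 to 1.39 times Irf2 in MAMs and at 0.328 to 0.409 times in RAMs.

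The log2 ratio of Irf7 counts to Irf3 counts, the induced to the constitutive factor of interferon production, was 3.36 ± 0.221 in MAMs and -2.66 ± 0.311 in RAMs. The difference was 6.02, again with p = 0.00794 in the exact permutation test and an adjusted p of 0.0119. The log2 fold changes were 5.81 for Irf7 and -0.21 for Irf3, so this ratio mostly restates the difference of Irf7. In FPKM, Irf7 was at 12.4 to 19.7 times Irf3 in MAMs, whereas in RAMs it was at 0.126 to 0.195 times.

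The log2 ratio of Irf8 counts to Irf4 counts was 2.11 ± 1.2 in MAMs and 2.29 ± 0.402 in RAMs. The difference of -0.18 did not pass the test (two-sided exact permutation, p = 0.762 and 0.762 after adjustment), and without MAM replicate 1 it was 0.18. The ratio varied 8.77-fold among the MAM libraries and 2.07-fold among the RAM libraries, with the lowest log2 ratio, 0.67, in MAM replicate 1 and the highest, 3.80, in MAM replicate 4.

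**Figure D4:**
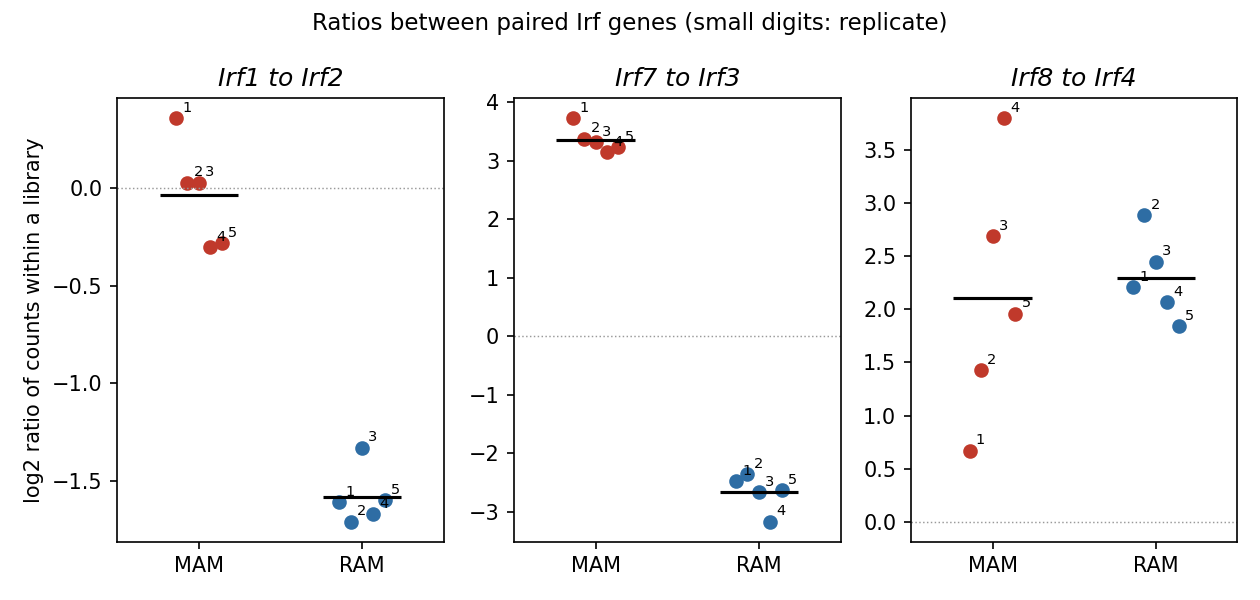
The log2 ratio of counts within a library for Irf1 to Irf2, Irf7 to Irf3 and Irf8 to Irf4, with 1 point per library numbered by replicate and a line at the group mean. The groups are apart for the first and second ratio, by 1.55 and 6.02, and the third spans 0.67 to 3.80 in MAMs.

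Among the genes whose pattern over the 10 libraries was nearest to that of Irf7 were Cd72 and Ccl2, with a root mean square difference of centred log2 CPM of 0.208 and 0.222. Cd72 encodes a receptor on B cells and macrophages, and Ccl2 a chemokine. Those nearest to Irf5 were Ddx58, Glrx and Tuba1a, at 0.0989, 0.104 and 0.124. Ddx58 encodes the RNA sensor RIG-I, Glrx a glutaredoxin and Tuba1a a tubulin. With 2 groups of libraries this likeness is set mostly by the size of the difference between the groups.

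The genes around the IRFs were described by lists of their roles. Of 51 tested genes in 5 lists, 31 were higher in MAMs, 9 were lower and the median log2 fold change was 0.54. Of all tested genes 28.9% were higher and 27.3% lower, with a median of -0.02, and the count of each list below stands beside these values. With upper-quartile scaling or library totals, 26 were higher and 12 lower. The ligands of the pathway were hardly seen: 15 of 21 interferon genes had no count in any library. A count of 0 allows up to 3 counts, a limit that covers counting error only, because reads carry no molecular identifiers and are not independent. By the study's methods only reads with a unique position were counted, so a count of 0 leaves out reads that map to several places. Only Ifnk, an interferon known from keratinocytes, was tested, and it was lower in MAMs (2.21 ± 1.71 CPM against 6.88 ± 1.36 in RAMs, SD, n = 5 each, log2 fold change -1.64, adjusted p = 0.0095, edgeR), with overlapping groups. Ifnb1, the first type I interferon made on sensing, reached 16 counts in 1 MAM library and had none in RAMs. Ifnab, a type I interferon, and Ifng, the type II interferon, reached 67 and 23 counts in a RAM library and had none in MAMs.

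Of 10 tested receptors and JAK-STAT partners, 8 were higher in MAMs and 1 was lower, with a median log2 fold change of 1.62, beside 28.9% higher, 27.3% lower and a median of -0.02 over all tested genes. Stat2, the partner of IRF9 in ISGF3, had the highest log2 fold change of the list at 2.76, with 558.1 to 635.8 CPM in MAMs, whereas RAMs had 71.7 to 110.1. Ifnar1, a chain of the type I receptor, followed at 2.15, with 231.4 to 290.4 CPM against 54.1 to 62.0. The kinases of the receptors differed among themselves. Tyk2 was lower in MAMs (log2 fold change -0.38, adjusted p = 0.0022, edgeR), whereas Jak1 was higher by 0.60 (adjusted p = 2.7e-06, edgeR) and Jak2 by 1.36 (adjusted p = 1.1e-08, edgeR). With upper-quartile scaling or library totals, 8 genes of this list were higher and 2 lower.

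Of 20 adaptors and kinases that activate IRFs, 13 were higher in MAMs and 3 were lower, beside 28.9% and 27.3% of all tested genes, with a median log2 fold change of 0.54. Ikbke, which encodes the kinase IKKε of IRF3 and IRF7, had the highest at 4.26 (SE 0.33), with 134.0 to 167.1 CPM in MAMs, whereas RAMs had 3.35 to 16.3. Tank, a scaffold of the same kinases, followed at 1.90. Mavs, the adaptor of the cytosolic RNA sensors, was lower at -1.80 (SE 0.0953, adjusted p = 3.5e-10, edgeR), with 37.0 to 43.6 CPM in MAMs, whereas RAMs had 117.8 to 154.6. Ikbkb, the IKKβ kinase that also acts on IRF5, was lower at -0.38. With upper-quartile scaling or library totals, 11 genes of this list were higher and 4 lower.

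Of 11 tested DNA-binding partners, 5 were higher in MAMs and 3 were lower, with a median log2 fold change of 0.18. The lower count is near the share over all tested genes, 27.3%, and 28.9% of them were higher. With upper-quartile scaling or library totals 3 were higher and 4 lower, so that the balance of this list turned. Batf2, a partner of IRF1 in activated macrophages, was between 31.2 and 62.3 CPM in MAMs and between 1.73 and 4.40 in RAMs, and its log2 fold change was 3.88. Bcl6, a repressor that can share sites with STATs, was at 2.24. Batf, the partner of IRF4 and IRF8 in lymphocytes and dendritic cells, was lower at -0.66, and Tcf3, an E protein, was lower at -0.40 (adjusted p = 0.044, edgeR).

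The last list held 9 genes, of proteins that restrain IRFs and of corepressors of IRF2 and their relatives. Of these, 5 were higher in MAMs and 1 was lower, beside 28.9% and 27.3% of all tested genes. The median log2 fold change of the list was 0.31, beside -0.02 over all tested genes. Trim21, a ubiquitin ligase for IRF3 and other members, was higher by 1.75, and Irf2bpl, a relative of the IRF2-binding proteins, by 1.61. Rbck1, a part of the linear ubiquitin ligase, was lower at -0.35 (adjusted p = 0.033, edgeR). Irf2bp2, a corepressor of IRF2, was higher by 0.16 (adjusted p = 0.044, edgeR), but its direction turned with upper-quartile scaling and with library totals, where it was no longer called.

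**Figure D5:**
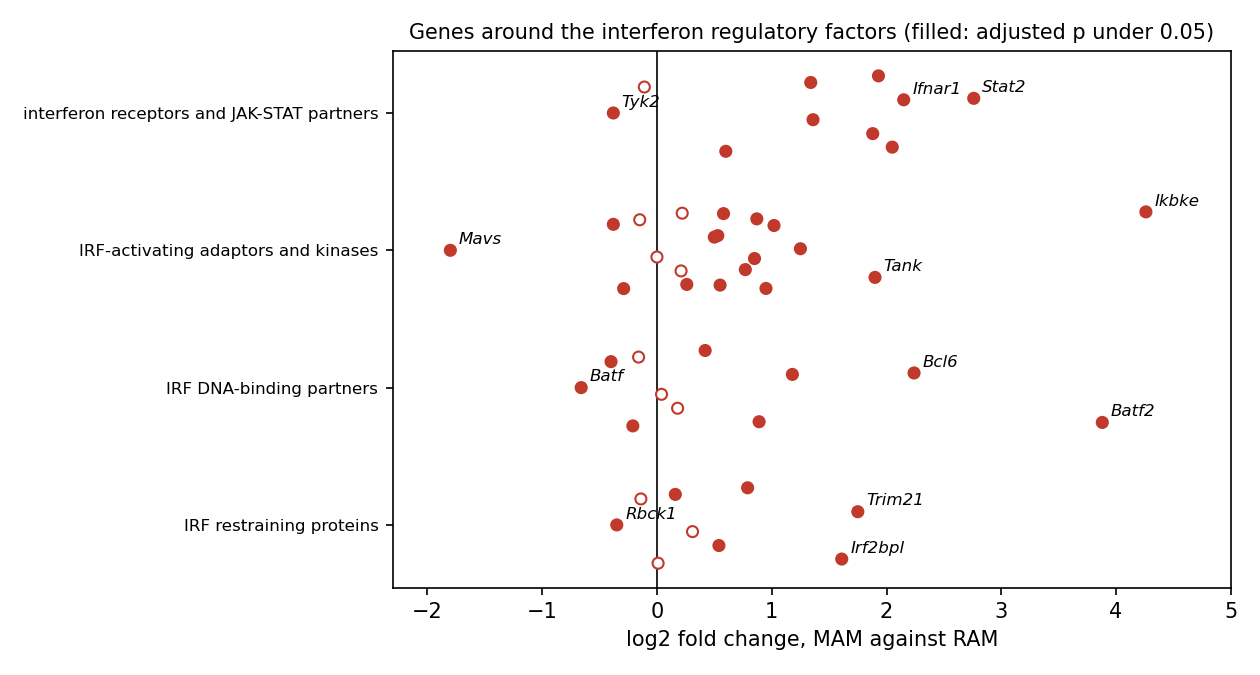
The log2 fold change, MAMs against RAMs, of each tested gene in 4 lists around the IRFs, filled where the adjusted p was under 0.05. The receptors and JAK-STAT partners lie mostly above 0, with a median of 1.62, while Ikbke at 4.26 and Mavs at -1.80 are at the ends of the adaptors and kinases.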

How the data were processed

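RNA of sorted MAMs and RAMs was amplified with the Ovation RNA-Seq System and sequenced in pairs. The authors aligned reads to GRCm38 with TopHat 2.0.13, counted them per gene of UCSC RefGene models with HTSeq 0.6.1 and deposited unnormalized counts for each library, plus FPKM from Cufflinks 2.2.1 (versions from the submitters' processing notes). Reads assigned to no gene, 54.6% to 58.3% of the lines in MAMs and 62.2% to 64.1% in RAMs, stayed out of library sizes. Libraries were grouped by their titles and sorting markers.

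Genes were tested if their mean FPKM reached 1 in either group and they had a count, 11571 in all, with edgeR 4.0.16 in R 4.3.3 (quasi-likelihood, TMM, Benjamini-Hochberg over all of them, adjusted p under 0.05). Ratios within a library used counts plus 0.5 and an exact permutation test (scipy 1.17.1). Alternatives were DESeq2 1.42.0, other scalings and filters, a test against a fold change of 2, limma 3.58.1 on log2 FPKM with 1 or 0.1 added, the replicate number as a block, and leaving out each library. Fits were tested on simulated data. No replicate libraries were identical. Siglec5 and Ighm were not analysed here.

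Named were the Irf genes, the 2 highest and 2 lowest called genes of each pathway list, ligands with at least 10 counts, the 3 genes nearest in pattern to Irf7 and Irf5, and the most abundant gene of each marker list; any other gene was chosen after its values were seen. Members and lists were chosen with earlier results of these data known. Some genes that this rule would name are not reported here. Positions came from GENCODE M21 on GRCm38, and promoters from RefSeq.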

Additional observations from a re-analysis of the deposited data

Results flagged for a closer look

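In 1 of 16 groups of 5 libraries (8 Irf genes in 2 groups each), the gap between the most distant library and its nearest neighbour exceeded 0.71 of the group's range, the 95% critical value of Dixon's test. Chance alone passes this limit in about 1 in 20 groups. Irf1 was at 36.3 CPM in RAM replicate 3, with the next library at 25.8 and a gap of 0.722 of the range. Leaving out 1 library at a time, the log2 fold change of Irf1 ran from 2.21 to 2.50.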

How the results depend on the processing

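The count of 7 Irf genes higher in MAMs was unchanged under RLE, upper-quartile and total scaling, DESeq2, 2 other filters, limma on both FPKM scales, the replicate block and each library left out, and it was 4 in the test against a fold change of 2, where Irf4, Irf8 and Irf2 were not called. The count of Irf genes lower in MAMs was 0, and 1 (Irf3) with upper-quartile scaling and with library totals. Over all tested genes 6504 were called, and 2511 in the test against a fold change of 2. The samples share replicate numbers, but same-numbered libraries did not deviate together (correlations from -0.0366 to 0.0294). The labels do not say whether the numbers pair the libraries, and these correlations cannot settle it. With the replicate number as a block 6305 genes were called, and the log2 fold change of Irf4 was 1.15. The differences in ratio within replicate numbers were 1.55 for Irf1 to Irf2 and 6.02 for Irf7 to Irf3, both at p = 0.0625 (exact sign-flip test), the smallest that 5 pairs allow, and -0.18 for Irf8 to Irf4. With 1 library left out, these differences ran from 1.45 to 1.62, from 5.89 to 6.10, and from -0.60 to 0.18, and the last turned without MAM replicate 1. The number of all called genes ran from 6122 to 6367. The log2 fold change of Irf7 was 6.85 after the lowest shared level was subtracted, a setting added after seeing the data. The cause of the change for Irf3 was not tested. At a count of 0, which most interferon genes had, up to 3 counts per library are allowed.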
